A study of Triticum aestivum with 6 samples.

Results

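A set of 262 wheat genes, of 99386 gene IDs in the table, was well expressed in leaves of plants at 23 °C. In leaves of plants at 4 °C, these genes were found at 25% or less of that level. The members were chosen by the values they are described with. The FPKM of all transcripts of a gene ID was summed in each condition. Members are the genes that reached 20 FPKM at 23 °C and had at least 1 FPKM at 4 °C but no more than 25% of the 23 °C level, and a mean of both levels under 1000 FPKM. FPKM is the number of sequenced fragments scaled by transcript length and by the size of the library, so levels of genes of different length can be set side by side.

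Leaf RNA of bread wheat (Triticum aestivum) was sequenced from 3 libraries of plants at 4 °C, labelled 4 weeks, and from 3 libraries of plants at 23 °C, labelled 2 weeks. All plants had a 16-hour photoperiod at 120 μmol m-2 s-1, stood in a separate chamber for each temperature and carry the same 18:3 lipid phenotype label, and the treatment label speaks of 2 weeks of cold. The cultivar, and whether plants were pooled for a library, are not stated in any source used here. The table holds a single value for each transcript and condition, made by the authors. No library has a value of its own, so the levels below have no SD, no n and no test, and how much of a difference the spread between libraries could give is unknown. Temperature, labelled weeks and chamber differ together between the conditions and cannot be told apart. In bulk leaf RNA, fewer cells of a type and less RNA per cell cannot be told apart either.

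As background, bread wheat is hexaploid. It carries an A, a B and a D subgenome, so most genes have close copies, called homoeologues, on the corresponding chromosomes of the other subgenomes. Cereal leaves held at low, non-freezing temperatures go through cold acclimation, in which growth slows and much of the leaf's transcript population is remodelled, with genes raised as well as lowered. Which functions the members have cannot be said here. Their IDs give the chromosome arm (the 5BL of an ID is the long arm of chromosome 5B) and no name. None of the 99386 gene IDs, the 262 members among them, was found in a RefSeq gene table of the assembly IWGSC CS RefSeq v2.1. Members are therefore described by arm and level, and only 2 are given by ID. No leaf marker gene could be looked up for the same reason.

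Members had a lowest level of 1.03 FPKM, a median of 7.77 FPKM and a highest of 243.8 FPKM at 4 °C, against a lowest of 20.03 FPKM, a median of 55.5 FPKM and a highest of 1276 FPKM at 23 °C. The median member was at 15.0% of its 23 °C level, with quartiles of 9.45% and 20.5%. Genes at 20 FPKM or more at 23 °C that are not members, 5210 in all, had a median of 106.1% and quartiles of 72.3% and 151.5%. On the log2(FPKM + 1) scale, the difference of 4 °C minus 23 °C had a median of -2.57 over the members and of 0.09 over the 42972 genes whose mean reached 1 FPKM. These values follow from the choice of members and are given as a description.

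**Figure D1:**
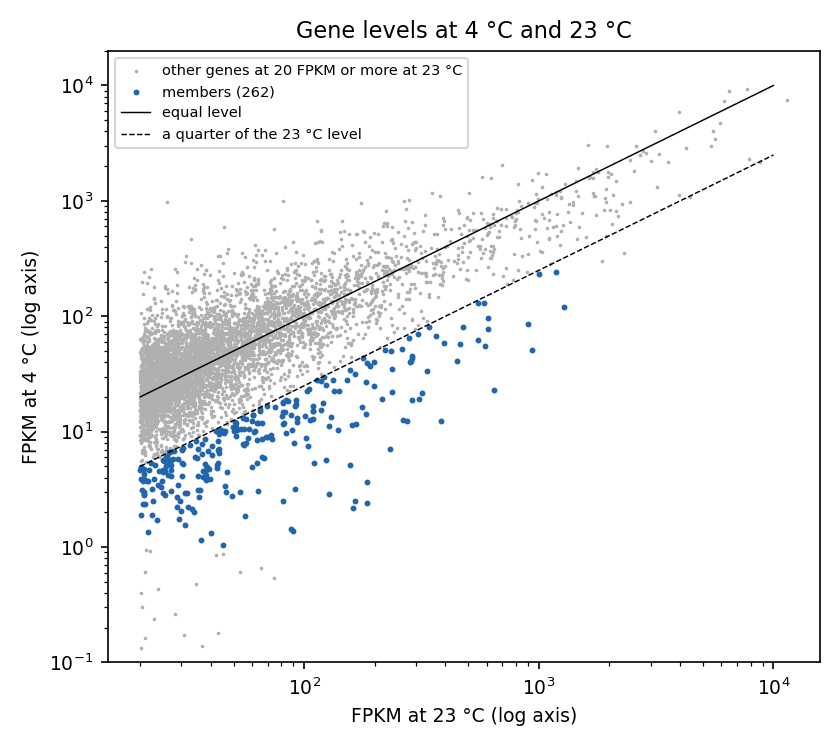
FPKM of each gene at 4 °C (vertical, log axis) against 23 °C (horizontal, log axis) for genes that reached 20 FPKM at 23 °C; blue points are the 262 members, grey points the other genes, and the lines mark equal levels and 25% of the 23 °C level. The members lie below the 25% line from 20 FPKM up to 1276 FPKM at 23 °C; 19 of the grey points lie under 1 FPKM at 4 °C, and the 13 genes listed at 0 there are not drawn.

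Most members stayed well above 1 FPKM in the cold. At 4 °C, 176 of the 262 had at least 5 FPKM, 112 at least 10 FPKM, 49 at least 20 FPKM and 5 at least 100 FPKM. At 23 °C, 143 had at least 50 FPKM and 81 at least 100 FPKM. Among the 1000 most abundant genes of a condition there were 4 members at 4 °C and 85 at 23 °C. All members together took 0.417% of the table's FPKM at 4 °C, against 3.14% at 23 °C, which left their summed level at 13.9% of that at 23 °C.

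The member with the highest 23 °C level was Traes_6BL_B48D251FF on the long arm of 6B, a gene with a single transcript, at 119.5 FPKM at 4 °C against 1276 FPKM at 23 °C. It ranked 1005 among all genes at 4 °C and 70 at 23 °C, and its cold level was 9.37% of the warm one. A pair of genes on the short arm of 2A followed. The first had 243.8 FPKM at 4 °C against 1185 FPKM at 23 °C, and the second had 231.7 FPKM at 4 °C against 999.5 FPKM at 23 °C. Both lay closer to the 25% limit than the 6B gene, at 20.6% and 23.2%.

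Next by 23 °C level came a gene on 3B, with 50.9 FPKM at 4 °C against 936.2 FPKM at 23 °C. A gene on 4DS had 85.5 FPKM at 4 °C against 898.1 FPKM at 23 °C. The sixth in this order, on 7DL, had 22.9 FPKM at 4 °C against 642.1 FPKM at 23 °C, and at 3.56% it was the most reduced of the 10 highest. Below it stood a pair of genes on 3AL that were nearly equal at 23 °C. One had 78.3 FPKM at 4 °C against 606.7 FPKM at 23 °C, and the other 96.7 FPKM at 4 °C against 606.2 FPKM at 23 °C. The last 2 of the 10 were on 4AL, with 54.7 FPKM at 4 °C against 587.5 FPKM at 23 °C, and on 7AL, with 130.7 FPKM at 4 °C against 585.6 FPKM at 23 °C. These 10 genes held 26.4% of the members' summed FPKM at 23 °C, so no single gene carries the sum.

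**Figure D2:**
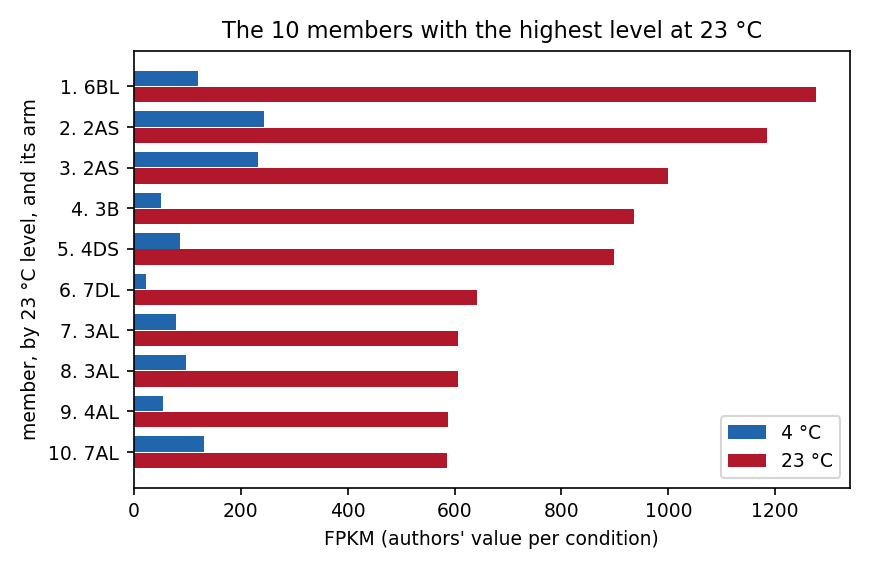
FPKM at 4 °C (blue, upper bar of each pair) and at 23 °C (red, lower bar) of the 10 members with the highest level at 23 °C, named by their rank in that order and their chromosome arm; each bar is the authors' single value for the condition. Levels run from 22.9 to 243.8 FPKM at 4 °C and from 585.6 to 1276 FPKM at 23 °C, and the order at 4 °C differs from that at 23 °C.

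The depth of the reduction varied widely within the set. The fold by which the 23 °C level exceeded the 4 °C level was under 8 in 164 members, at least 8 in 98, at least 16 in 29 and at least 32 in 10. The most reduced member was Traes_1AL_A785A010E on the long arm of 1A, at 2.40 FPKM at 4 °C against 185.1 FPKM at 23 °C, which is 1.29% of the 23 °C level. A gene on 1BL came next, with 2.19 FPKM at 4 °C against 162.2 FPKM at 23 °C. A 6BL gene had 2.51 FPKM at 4 °C against 164.8 FPKM at 23 °C. These 3 were more abundant than the median member at 23 °C and less abundant than the median member at 4 °C.

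Deep reductions were frequent among members on the long arms of homoeologous group 1, a pattern picked after the values were seen and not tested. Of the 10 members with at least a 32-fold difference, 5 were on 1AL, 1BL or 1DL. Besides the 1AL and 1BL genes above, these were a 1DL gene with 1.38 FPKM at 4 °C against 90.0 FPKM at 23 °C, a 1BL gene with 1.43 FPKM at 4 °C against 87.8 FPKM at 23 °C, and a further 1BL gene with 7.01 FPKM at 4 °C against 233.1 FPKM at 23 °C. Over all 30 members on these arms, 20 differed at least 8-fold, or 66.7%, against 78 of the 232 members on other arms, or 33.6%. The median was 9.06% of the 23 °C level on 1AL, 1BL and 1DL and 16.0% elsewhere. Summed over the 30 genes, the level was 186.5 FPKM at 4 °C against 2718 FPKM at 23 °C, or 6.86%, against 13.9% for all members.

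The most abundant members of these arms were deeply reduced as well. The highest on 1DL had 12.3 FPKM at 4 °C against 381.6 FPKM at 23 °C, and the highest on 1AL had 12.3 FPKM at 4 °C against 274.0 FPKM at 23 °C, which is 3.24% and 4.48% of their 23 °C levels. The arms also held members near the limit, such as a 1AL gene with 7.13 FPKM at 4 °C against 30.1 FPKM at 23 °C, at 23.7%. On the short arms of group 1, 5 of 13 members differed at least 8-fold, which makes 58.1% of the 43 members in group 1 as a whole. In the other homoeologous groups this share ranged from 25.5% in group 2 to 39.6% in group 5. By subgenome it was 33.8% of 71 members on A, 48.4% of 93 on B and 29.6% of 98 on D chromosomes. Copies of a gene can exchange reads, and the IDs do not say which members are copies of each other, so these genes are not independent.

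Members made up a minority of the genes at their level. Of 5472 genes that reached 20 FPKM at 23 °C, 298 were at 25% or less at 4 °C, or 5.45%, and 109 were at least 4-fold higher at 4 °C, or 1.99%. Choosing genes by a high 23 °C level favours those that are lower at 4 °C. With the conditions exchanged, 840 of 6691 genes that reached 20 FPKM at 4 °C, or 12.6%, had 25% or less of that level at 23 °C. Of the 42972 genes whose mean reached 1 FPKM, 3.02% were at least 4-fold lower at 4 °C and 5.77% at least 4-fold higher. Members thus belong to the less frequent direction.

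The share of genes reduced 4-fold varied with level. By level at 23 °C, it was 4.07% of genes with 20 to under 50 FPKM, 6.61% with 50 to under 100 FPKM, 9.67% with 100 to under 200 FPKM, 10.3% with 200 to under 500 FPKM and 8.08% with 500 FPKM or more. At least 4-fold higher at 4 °C were 2.29%, 2.24% and 1.10% of the first 3 classes, and 0 of the 253 and 198 genes of the last 2. Grouping by the mean of both conditions treats the conditions alike. The share reduced was then 2.24% at 10 to under 20 FPKM, 2.71% at 20 to under 50 FPKM, 3.74% at 50 to under 100 FPKM, 4.60% at 100 to under 500 FPKM and 3.66% at 500 FPKM or more. In the same classes 6.11%, 8.07%, 9.19%, 11.9% and 3.66% were at least 4-fold higher, so in the highest class the 2 directions were equally frequent, at 7 genes each of 191.

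**Figure D3:**
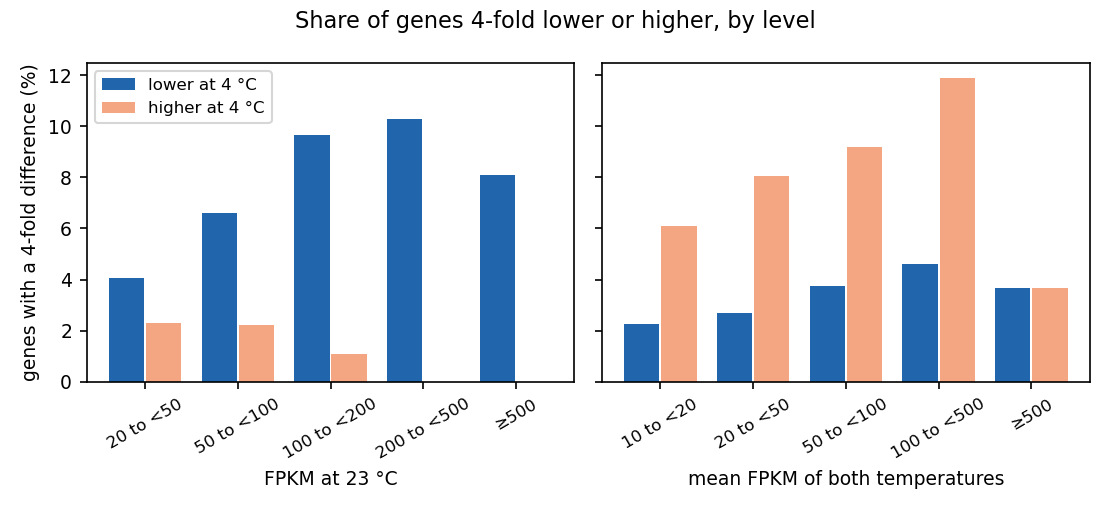
Percentage of genes at least 4-fold lower (blue) or higher (orange) at 4 °C, by FPKM at 23 °C (left panel) and by the mean FPKM of both conditions (right panel). Lower genes range from 4.07% to 10.3% in the left panel and from 2.24% to 4.60% in the right panel, where higher genes reach 11.9%.

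Within the range that the rule allows, the median depth of the reduction differed little between classes of 23 °C level among members. Their median was 16.1% of the 23 °C level in the 119 members with 20 to under 50 FPKM, 16.6% in the 62 with 50 to under 100 FPKM and 13.5% in the 43 with 100 to under 200 FPKM. It was 14.3% in the 26 with 200 to under 500 FPKM and 12.2% in the 12 with more. The minimum of 1 FPKM at 4 °C limits how deep a reduction can be, most of all in the lowest class. The rule also sets the least depth that a member can have, which holds the medians of all classes close together. Its upper limit of the mean leaves reduced genes out of the highest class. These medians are therefore a description, and whether depth depends on level was not tested.

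Genes lay close to either side of 3 of the 4 limits of the set, and the upper limit fell in a gap. The member nearest to the 25% limit, on 2DS, had 6.61 FPKM at 4 °C against 26.4 FPKM at 23 °C, which is 0.2499 of the warm level, while the nearest gene outside, on 3DL, had 44.4 FPKM at 4 °C against 177.3 FPKM at 23 °C, which is 0.2502 of it. The lowest member at 23 °C, on 3B, had 4.67 FPKM at 4 °C against 20.03 FPKM at 23 °C, and the nearest gene left out, on 6DS, had 2.26 FPKM at 4 °C against 19.95 FPKM at 23 °C. By mean, the highest member, on 2AS, was at 714.5 FPKM and the nearest gene above the limit of 1000 FPKM, on 2DS, at 1084 FPKM. The lowest member at 4 °C, on 7AS, had 1.03 FPKM at 4 °C against 44.9 FPKM at 23 °C, and the gene just under that limit, on 5DL, had 0.947 FPKM at 4 °C against 21.1 FPKM at 23 °C. In all, 74 members lay between 20% and 25% of their 23 °C level.

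Of the 298 genes reduced to 25% or less, 36 fell outside the set. Under 1 FPKM at 4 °C were 32 of them, 13 of which are listed at 0 there, and an exact 0 may stand for an estimate that failed. These 32 had a median of 27.5 FPKM at 23 °C, below the members' lower quartile of 30.7 FPKM, and 26 of them have a single transcript. The other 4 had a mean of 1000 FPKM or more and all lay on short arms of group 2. A 2DS gene had 2170 FPKM at 4 °C against 8793 FPKM at 23 °C, and a second 2DS gene had 302.6 FPKM at 4 °C against 1865 FPKM at 23 °C. The 2AS gene had 1077 FPKM at 4 °C against 4424 FPKM at 23 °C, and the 2BS gene had 356.2 FPKM at 4 °C against 2317 FPKM at 23 °C. The pair that follows the 6B gene in the order of 23 °C levels is on 2AS as well, below that limit.

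Members were spread over the genome. The rule did not use the arm, so placement was free to vary. They were found on 40 of 41 arms, and 12 of 13 sets of corresponding arms held members on A, B and D chromosomes, with group 3 counted as 1 set because 3B is not split into arms. Chromosomes of A carried 71 members, those of B 93 and those of D 98, which is 4.40%, 5.24% and 4.70% of the genes that reached 20 FPKM at 23 °C on each. Over all arms this share was 4.79%. The larger number on D thus goes with the larger number of well-expressed genes there, 2083 on D, 1776 on B and 1613 on A. Group 6 was uneven, with 274 of these genes on 6DL and 142 on 6DS, against 12 on 6AL and 40 on 6AS. With all groups, 37.4% of members were on D and 35.5% on B chromosomes. Without group 6 this order turned, at 33.5% on D and 36.5% on B.

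By homoeologous group, the share of well-expressed genes that were members was 6.20% in group 1 and 5.37% in group 5, with 43 and 48 members. It was 4.96% in group 2, 4.63% in group 7, 4.33% in group 6, 4.03% in group 4 and 3.93% in group 3. Among sets of corresponding arms, 1AS, 1BS and 1DS stood highest at 6.77%, with 6, 5 and 2 members. The long arms 5AL, 5BL and 5DL held the most, with 9, 14 and 14 members, at 5.45%. The lowest share was 2.67% on 4AS, 4BL and 4DL, with 2, 5 and 3 members. As background, 4AS corresponds to the long arms of 4B and 4D because chromosome 4A is inverted. The arms 7AS, 7BS and 7DS held 7, 2 and 6 members, and 4AL held 6.

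Single arms carried 0 to 14 members, so their shares rest on few genes. The arms 5BL and 5DL and the unsplit chromosome 3B had 14 each. By share, 1AS led with 6 of 67 genes, or 8.96%, followed by 1BS with 5 of 62, or 8.06%, and 2BL with 13 of 174, or 7.47%. Of the corresponding arms, 1DS had 2 of 63, or 3.17%, and 2AL 6 of 166, or 3.61%. Shares on 7AL, 7BL and 7DL were closer to each other, at 5.56%, 4.46% and 4.70%, and none of these differences was tested. On 6AL there was no member, but that arm had only 12 genes that reached 20 FPKM at 23 °C, and 6AS had 1 member among 40. The 6D arms, with 274 well-expressed genes on 6DL and 142 on 6DS, held 11 and 9 members. The number of well-expressed genes thus moves with these counts, and its part in them was not tested.

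**Figure D4:**
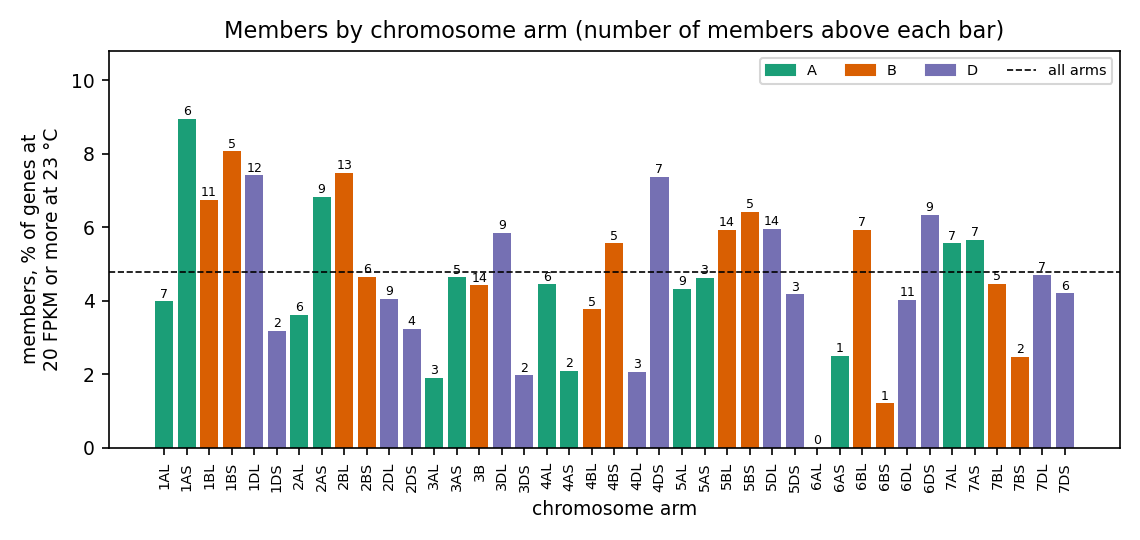
Members as a percentage of the genes that reached 20 FPKM at 23 °C on each of the 41 chromosome arms, coloured by subgenome, with the number of members above each bar and the share over all arms, 4.79%, as a dashed line. Shares run from 0 on 6AL to 8.96% on 1AS and rest on 0 to 14 members an arm.

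Neighbours of members were compared by the order of the table. The transcript numbers of the table run through the arms as 41 unbroken blocks, so each gene has a neighbour in this order. Whether neighbours in the numbering lie next to each other on a chromosome is not stated in any source used here. Another member was the direct neighbour of 6 of the 262 members, in 3 pairs, or 2.29%. Of the 5210 other genes at 20 FPKM or more at 23 °C, 32 had a member as a neighbour, or 0.614%, and of all gene IDs 0.527% did. The difference between these shares rests on 3 pairs and was not tested. On 5BL, a gene with 12.7 FPKM at 4 °C against 263.1 FPKM at 23 °C stood beside one with 18.9 FPKM at 4 °C against 289.4 FPKM at 23 °C, so this pair was alike in level and in depth, at 4.84% and 6.54%. On 1BL the values were 3.41 FPKM at 4 °C against 45.8 FPKM at 23 °C for one gene and 8.02 FPKM at 4 °C against 90.6 FPKM at 23 °C for its neighbour. The pair on 5AS differed more, with 36.8 FPKM at 4 °C against 190.3 FPKM at 23 °C in one gene, and 3.11 FPKM at 4 °C against 35.9 FPKM at 23 °C in its neighbour. Neighbouring IDs with similar values may be pieces of a single gene, which cannot be told from the IDs.

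Over all genes beside a member, the 6 members included, 267 had a mean of at least 1 FPKM. Of these, 15 were at 25% or less at 4 °C, or 5.62%, and 6 of the 15 are the members of the 3 pairs. The share over all 42972 genes at that mean was 3.02%. At 50% or less were 11.2% of the genes beside a member and 10.9% of all genes, and at least 2-fold higher were 13.5% and 16.7%. The median log2(FPKM + 1) difference of 4 °C minus 23 °C was 0.08 for genes beside a member and 0.09 for all genes. No test was made, since genes are not replicates.

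Most transcripts of members that were expressed at 23 °C were lower at 4 °C. Their values are parts of the sums that the rule used, and those with much of their gene must be lower for it to be a member. The members have 1029 transcripts in the table, of which 186 are listed at 0 in both conditions. Of 600 transcripts with at least 1 FPKM at 23 °C, 504 were at 25% or less at 4 °C, or 84.0%, and 6 were higher at 4 °C. Every transcript with at least 1 FPKM at 23 °C was lower at 4 °C in 257 of the 262 members, and every transcript that took at least 10% of its gene at 23 °C was lower in all 262. A minimum at 23 °C favours transcripts that are lower at 4 °C. With transcripts of any level above 0 counted, all were lower in 198 members, or 75.6%.

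A transcript with most of its gene's level must be lower for the gene to enter the set, but a single minor one need not. Minor transcripts were taken as those that reached 1 FPKM at 23 °C but made up under 25% of their gene's level there. Each could have stayed at its 23 °C level with its gene still in the set, provided that the other transcripts were low enough. There were 268 of them in 126 members. Of these, 192 were at 25% or less at 4 °C, or 71.6%, 262 were lower and 6 were higher. In genes at 20 FPKM or more that are not members, 11.7% of 4882 minor transcripts were at 25% or less. The median minor transcript was at 14.8% of its 23 °C level in members, with quartiles of 5.78% and 29.2%, and at 93.4% in the other genes, with quartiles of 50.2% and 157.4%. These values come from the same contrast as the rule and are a description. Transcripts of a gene share reads that the authors' software divides among them, so their values are not separate measurements, and the part of this in the result was not tested.

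**Figure D5:**
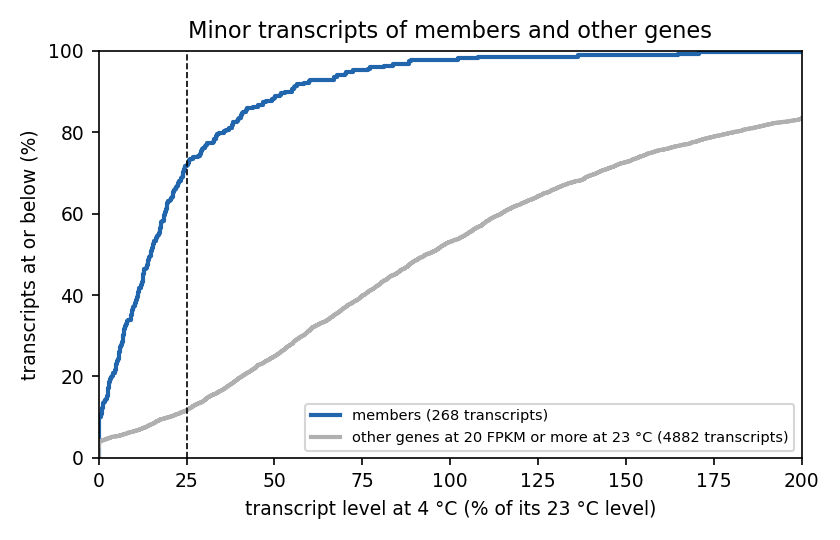
Cumulative percentage of minor transcripts (vertical) at or below a given level at 4 °C, as a percentage of their own 23 °C level (horizontal, drawn up to 200%), for 268 transcripts of members (blue) and 4882 transcripts of other genes that reached 20 FPKM at 23 °C (grey). At the dashed line, 25%, the curves stand at 71.6% for members and 11.7% for the other genes; 1 transcript of members and 813 of other genes lie beyond the axis.

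A few transcripts of members were higher in the cold. At least 1 FPKM at 4 °C and a higher level than at 23 °C was seen in 13 transcripts of 10 members. The highest was a transcript of a 7DS gene, with 8.35 FPKM at 4 °C and listed at 0 at 23 °C, in a gene with 50.5 FPKM at 4 °C against 221.3 FPKM at 23 °C. A 7AS gene with 20 transcripts, at 69.8 FPKM at 4 °C against 304.4 FPKM at 23 °C, held 4 of the 13. Its largest such difference was a transcript with 5.62 FPKM at 4 °C against 0.588 FPKM at 23 °C.

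The leading transcript of a gene was mostly the same one in both conditions. Among 189 members with several transcripts it took a median of 74.2% of the gene at 4 °C and 73.5% at 23 °C, and in the other well-expressed genes 75.7% at 4 °C and 74.0% at 23 °C. It was a different one in 25 members, or 13.2%, against 346 of 4057 other genes, or 8.53%. Where the leader took at least 60% in each condition, it differed in 3 of 113 members, or 2.65%, and in 8 of 2617 other genes, or 0.306%. The rule favours genes whose 23 °C leader fell far, and the other genes were not matched to members by level at 4 °C. These shares are therefore a description, and the difference was not tested.

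These 3 members had little left at 4 °C. The 5BL gene, with 1.54 FPKM at 4 °C against 31.1 FPKM at 23 °C, was led at 23 °C by a transcript listed at 0 at 4 °C and 28.3 FPKM at 23 °C, while its leader in the cold had 1.35 FPKM at 4 °C against 2.42 FPKM at 23 °C. In the 7DL gene, with 2.05 FPKM at 4 °C against 29.998 FPKM at 23 °C, the leader of the warm leaves had 0.00017 FPKM at 4 °C against 21.9 FPKM at 23 °C. Its other transcript had 2.05 FPKM at 4 °C against 8.13 FPKM at 23 °C. The 2AS gene had 1.36 FPKM at 4 °C against 21.6 FPKM at 23 °C, and its transcripts changed order by a smaller margin. Its leader in the cold took 60.3% of the gene at 4 °C and 35.6% at 23 °C. In each of the 3 genes, the transcript that led in the cold was itself lower at 4 °C than at 23 °C.

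Members had slightly fewer transcripts than the other genes that reached 20 FPKM at 23 °C, which were not matched to them by level. A single transcript was listed for 73 of them, or 27.9%, against 22.1% of the 5210 other genes, and the median number was 2.5 in members and 3 in the others. Members with a single transcript had a median of 50.4 FPKM at 23 °C and those with several 57.5 FPKM. The cold level was at a median of 14.0% of the 23 °C level with a single transcript and 15.9% with several. The rule limits both to 25%, so these values are a description.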

How the data were processed

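The authors deposited FPKM values of 442311 assembled transcripts, of which 384429 carry a gene ID, with 1 column per condition. The column named cold was taken as 4 °C and the one named control as 23 °C, since the labels speak of cold. The tools named in the submitters' processing notes are Cuffdiff 2.1.1, Cufflinks 2.1.1, STAR 2.3.0e, Trimmomatic 0.30 and CASAVA 1.8.2. What each did, the build, the annotation, and the way 3 libraries became a single column, are not stated in any source used here. Depth is unknown, so no interval or detection limit is given.

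FPKM was summed per gene ID with Python 3.11.15, pandas 2.3.3 and numpy 2.4.6, and the rule was applied to the sums. Log2 values have a pseudocount of 1, which understates changes of low genes. The code of the rule was checked on a copy of the 23 °C levels in which chosen genes were lowered by set folds. That copy had no variation between libraries, so the check does not say how reliable the rule is on these data. Members and comparisons were chosen with earlier results of these data known. With IDs that carry no names, the 2 IDs printed are the member highest at 23 °C and the one most reduced. Alternatives were median-of-ratios scaling, other limits, other pseudocounts, leading transcripts, and leaving out homoeologous group 6.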

Additional observations from a re-analysis of the deposited data

How the results depend on the processing

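No paired analysis was possible because values per library were not used here, and so no fit could leave a library out either. Median-of-ratios scaling lowered the 4 °C column by 0.11 in log2 FPKM relative to the 23 °C column. It gave 297 members, 261 of them among the 262. The count was 418 with at least 10 FPKM at 23 °C and 143 with at least 50 FPKM, as a lower or higher limit requires. It was 294 with no minimum at 4 °C, 266 with no upper limit, 233 without homoeologous group 6 and 235 with the leading transcript in place of the sum, of which 214 are members. Over these settings the share of members was 25.9% to 30.04% on A, 33.01% to 36.5% on B and 33.5% to 39.9% on D chromosomes. The 33.5% on D is the share without group 6. Shares of single homoeologous groups lay between 9.36% and 20.6%, and leaving out group 6 raises those of all others. For group 1 the share was 16.4% in the main set. It ran from 13.3%, with at least 50 FPKM at 23 °C, to 18.5%, without group 6. The median log2 difference of the members was -2.73 with a pseudocount of 0.1, -2.73 with none and -2.67 after scaling. Of FPKM with a gene ID, members took 0.496% at 4 °C and 3.86% at 23 °C. The leading transcript differed in 2.65% in place of 13.2% of members where it took at least 60% in each condition, a rule that leaves out genes near a tie. All transcripts were lower at 4 °C in 75.6% of members, 98.1% with transcripts of at least 1 FPKM at 23 °C and 100% with those of at least 10% of the gene.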

Other observations

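Transcripts with no gene ID stand between the genes in the table's numbering, and 192 of them had a member as the nearest gene on either side. Of the 37 with at least 1 FPKM at 23 °C, 8 were at 25% or less at 4 °C, or 21.6%, against 16.5% of 18828 other transcripts with no gene ID. Their median was 54.7% of the 23 °C level, and 66.9% in the others. The share of 21.6% rests on 8 transcripts, the groups were not matched by level, and these differences were not tested. The most abundant of the 37, beside the 5AS member with 36.8 FPKM at 4 °C against 190.3 FPKM at 23 °C, had 26.8 FPKM at 4 °C against 156.8 FPKM at 23 °C, so the level and the depth of both were close. The next, beside a 1AL member with 12.3 FPKM at 4 °C against 274.0 FPKM at 23 °C, had 13.9 FPKM at 4 °C against 34.7 FPKM at 23 °C, and was reduced less than its neighbour. Whether such transcripts belong to the genes beside them is not stated in any source used here.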
